A study of Mus musculus with 2 samples.

Results

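The nuclear genes for respiratory complexes I, III, IV and V were examined in a mouse glioblastoma stem cell line carrying an shRNA against Gli2 and in the same line carrying a control shRNA. Genes were taken whose probes carry a RefSeq accession of a nuclear symbol that begins with Nduf, Uqcr or Atp5, or with Cox and a digit. This gave 97 genes with 127 probes among 23784 named genes on the array. They were 7 core and 29 accessory subunits of complex I, 8 Ndufaf assembly factors, the pair Ndufa4 and Ndufa4l2, 8 complex III subunits, 17 complex IV subunits, 9 complex IV assembly factors and 17 complex V subunits. Another 24 symbols that fit the rule, 20 of them pseudogenes, had no named probe. The remaining 4 were Cox5b, Ndufb1, Ndufb4b and Ndufb4c, which were not analysed here.

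Each group holds 1 array of total RNA. The Gli2 shRNA array holds cells stably transduced with a lentivirus for an shRNA against Gli2, the zinc finger factor that carries Hedgehog signals to target genes, and the control array holds cells transduced with a lentiviral non-target shRNA. All cells belong to 1 line, kept as neurospheres without serum, with EGF and bFGF added, which was made from de novo brain tumours induced in mice with a Sleeping Beauty transposon. No replicate cultures were analysed here, so no difference below has a test, and the error printed with ± is the scanner software's error of both spots carried to the log2 difference. Genes were counted by a size rule of 2-fold and, more loosely, by whether a difference exceeded that software error.

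The respiratory chain sits in the inner mitochondrial membrane. Complex I takes electrons from NADH and passes them to ubiquinone, complex III hands them from ubiquinol to cytochrome c, and complex IV passes them to oxygen. All of these complexes pump protons, and complex V, the ATP synthase, lets the protons flow back through its membrane rotor to drive ATP synthesis in its F1 head. Most subunits are nuclear encoded, and assembly factors, which are not part of the finished enzymes, insert their metal centres and join their modules. NRF1, the ETS factor GABP and YY1 are textbook regulators of these promoters.

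In the nuclear genes of the 4 complexes no 2-fold difference was found. Of 93 genes measured on both arrays, 0 differed by 2-fold or more in either direction, against 3.63 percent of all named genes measured on both arrays. Bright genes seldom did so: of 1391 other genes in the brightest 10 percent of named genes, where 66 of the 93 lie, 4 passed 2-fold. Cox6b1, a complex IV subunit, was 1.75-fold lower in the Gli2 shRNA array, and Cox19, a complex IV assembly factor, was 1.44-fold higher. All others lay between these, and 75.3 percent of the 93 differed by no more than the software error. Past that error were 23 of the 93, 6725 of all 14563 named genes and 401 of the 1391 other bright genes.

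Promoters are shown for the lowest and the highest of the measured genes, Cox6b1 and Cox19, for the lowest assembly factor, Ndufaf4, and for Cox6a1, whose window matches several of the searched motifs. Each is the RefSeq sequence of the 250 bases before the annotated start, 5′ to 3′ on the strand of the gene, in build GRCm38.p6. Capitals mark exact matches, on either strand, to the searched cores of NRF1 (GCGCATGCG), ETS or GABP (CCGGAAG), YY1 (AAGATGGCG), ERR (TCAAGGTCA), SP1 (GGGCGG) and GLI (TGGGTGGTC).
Cox6b1: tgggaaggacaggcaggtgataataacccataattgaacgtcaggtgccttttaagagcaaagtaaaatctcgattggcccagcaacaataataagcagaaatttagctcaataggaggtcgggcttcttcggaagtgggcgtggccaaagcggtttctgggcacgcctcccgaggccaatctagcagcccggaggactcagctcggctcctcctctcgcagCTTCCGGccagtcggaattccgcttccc
Cox19: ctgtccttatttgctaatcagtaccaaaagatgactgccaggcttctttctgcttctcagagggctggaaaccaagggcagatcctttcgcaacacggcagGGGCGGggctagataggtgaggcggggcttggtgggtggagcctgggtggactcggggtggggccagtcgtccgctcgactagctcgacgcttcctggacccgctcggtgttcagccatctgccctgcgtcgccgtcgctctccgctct
Ndufaf4: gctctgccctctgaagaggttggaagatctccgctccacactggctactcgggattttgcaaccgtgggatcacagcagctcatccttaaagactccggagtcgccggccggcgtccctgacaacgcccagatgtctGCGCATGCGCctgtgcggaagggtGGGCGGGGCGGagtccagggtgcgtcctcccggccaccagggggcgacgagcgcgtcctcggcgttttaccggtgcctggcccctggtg
Cox6a1: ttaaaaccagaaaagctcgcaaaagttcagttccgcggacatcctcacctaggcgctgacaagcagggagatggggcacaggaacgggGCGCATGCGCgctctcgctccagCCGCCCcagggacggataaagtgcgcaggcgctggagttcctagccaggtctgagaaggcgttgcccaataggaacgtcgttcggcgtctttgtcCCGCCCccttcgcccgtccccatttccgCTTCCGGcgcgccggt
The Cox6b1 window (chr7:30626115-30626364, minus strand) holds 1 ETS or GABP match, 28 to 22 bases before the start. The Cox19 window (chr5:139345167-139345416, minus strand) holds 1 SP1 match, 149 to 144 bases before the start. The Ndufaf4 window (chr4:24897833-24898082, plus strand) holds an NRF1 match on each strand, overlapping in 1 palindrome-like run, and overlapping SP1 matches. The Cox6a1 window (chr5:115348959-115349208, minus strand) holds the same NRF1 run, an ETS or GABP match and SP1 matches.

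The Gli2 shRNA array was brighter as a whole, with a 75th percentile signal of 399 against 329 on the control array, so a gene with a somewhat higher signal in the Gli2 shRNA array can have a negative scaled difference. A positive log2 difference means higher in the Gli2 shRNA array, after each array was scaled on its own 75th percentile. Scaling on the median of each array instead added 0.14 to every gene, and the median over all named genes was 0.14 by that scaling, against 0.00 as reported. Signals of different probes depend on the probe as well as on the RNA, so they are used to sort genes by brightness and not to set the RNA level of one gene against that of another.

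Measured on both arrays, 72 respiratory genes were below 0 and 21 above, which is 77.4 percent below 0, against 49.7 percent of all named genes. Their median difference was -0.09 with quartiles of -0.18 and -0.01, against a median of 0.00 and quartiles of -0.19 and 0.20 over all named genes. Under median scaling the median was 0.04, with 30 genes below 0. Relative to the median of all named genes it was -0.10 as reported, -0.07 after quantile normalisation or cyclic loess and -0.03 after normexp. The genes past the software error were 20 lower, or 21.5 percent against 22.4 percent of all named genes, and 3 higher, or 3.23 percent against 23.8 percent. Of the 1391 other genes in the brightest 10 percent, 281 were lower and 120 higher past the error, and of the 66 respiratory genes there, 14 were lower and 0 higher. The 3 higher ones were Cox19, Cox6b2 and Cox20. The spread of the respiratory genes (SD 0.18) was less than that of all named genes (SD 0.42).

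The shift below 0 was set beside signal strength. Of the 93 genes, 66 (71.0 percent) were in the brightest 10 percent of named genes, where the other 1391 genes also lay below 0, with a median of -0.08 and 938 of them negative. The 66 respiratory genes there had a median of -0.10, and 55 were negative. The remaining 27 had a median of -0.08, and 17 were negative. The respiratory genes of the brightest 10 percent varied less (SD 0.11) than the other bright genes (SD 0.21). The part of brightness in the shift was not tested.

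**Figure D1:**
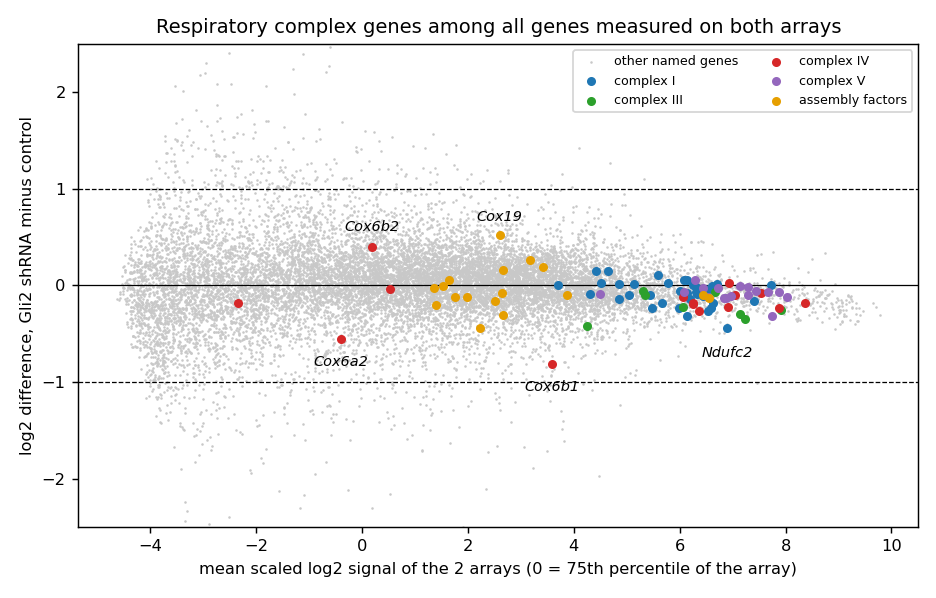
Each point is 1 gene measured on both arrays; the x axis is its mean scaled log2 signal and the y axis its log2 difference, Gli2 shRNA minus control, with dashed lines at 2-fold. Coloured respiratory genes gather at the bright end, where most grey genes also lie slightly below 0 (median -0.08), and 16 other genes lie beyond the plotted range.

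In complex I, whose nuclear-encoded core subunits carry the flavin and the iron-sulphur clusters, the 7 core genes had a median of 0.00, with 3 below 0 and 4 above. Ndufs7, which holds the cluster next to the ubiquinone site, gave signals of 16434 in the Gli2 shRNA array and 15906 in the control array, a difference of -0.23 ± 0.20. Ndufs1 and Ndufs3, also in the arm that faces the matrix, were at -0.14 and -0.10. The iron-sulphur subunits Ndufs8 and Ndufv2 were at 0.05 and 0.00. Ndufv1, which binds NADH and the flavin, was the highest core gene, with signals of 19983 in the Gli2 shRNA array and 15300.3 in the control array and a difference of 0.11 ± 0.20. Only Ndufs7 was past the software error, and the sign of the core median turned with the processing (-0.02 where all probes of a gene were averaged, and 0.14 under median scaling).

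The accessory subunits surround that core. Of 29, all were measured, and 25 were among the bright genes defined above. Of the 1391 other bright genes, 938 were below 0 and 281 lower past the software error, with a median of -0.08. Of the 29, 20 were below 0 and 9 were above (49.7 percent of all named genes were below 0). Lower past the software error were 5 of them (22.4 percent of all named genes were). Their median was -0.07 (0.07 under median scaling). Ndufc2 (NM_024220, chromosome 7), a subunit of the membrane arm, was the lowest, with signals of 40800.0 in the Gli2 shRNA array and 45767 in the control array and a difference of -0.44 ± 0.20, or 1.36-fold lower. Only Ndufc2 and, on its brighter probe, Ndufb2 had a lower signal in the Gli2 shRNA array before scaling among complex I subunits. Ndufb2, also of the membrane arm, followed at -0.32 ± 0.20, with signals of 25116 in the Gli2 shRNA array and 25787 in the control array. Its dimmer probe gave 12966 in the Gli2 shRNA array and 12191 in the control array, not lower before scaling. The difference on that probe, -0.19 ± 0.20, was within the error. Ndufb8, Ndufa5 and Ndufb10 were at -0.26, -0.24 and -0.24. At the other end stood Ndufa10, a nucleoside kinase-like subunit, at 0.15, with Ndufs4, a subunit needed for a stable NADH-oxidising module, at 0.14 and Ndufa3 at 0.06. None of these 3 was past the software error. Ndufab1, the mitochondrial acyl carrier protein, was at -0.11 and Ndufa13, also known as GRIM-19, at 0.00.

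The Ndufaf proteins build complex I and leave it. All 8 were measured, and 7 were below 0 and 1 above (49.7 percent of all named genes were below 0). The median was -0.11 (0.03 under median scaling). Ndufaf4 (NM_026742, chromosome 4), which works with Ndufaf3 in early assembly, gave signals of 1608 in the Gli2 shRNA array and 1802 in the control array, a difference of -0.44 ± 0.20, or 1.36-fold lower. Its partner Ndufaf3 was at -0.02 ± 0.20, with signals of 1019 in the Gli2 shRNA array and 856 in the control array. Ndufaf6 was at -0.21 ± 0.20, just past its error. Ndufaf5 and Ndufaf7, which modify subunits chemically during assembly, were at -0.12 and -0.08. The chaperone Ndufaf2 and Ndufaf8, the partner of Ndufaf5, were at -0.10 and -0.12. The highest was Ndufaf1, a member of the complex that assembles the membrane arm, at 0.16 ± 0.20. None of the 8 was in the brightest 10 percent of genes.

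Complex III had the lowest median of the 4 complexes. All 8 Uqcr genes were below 0 (49.7 percent of all named genes were), with a median of -0.24. Of them 5 were lower past the software error (22.4 percent of all named genes were). Under median scaling the median was -0.10, and Uqcrc2, Uqcr11 and Uqcrfs1 were above 0, at 0.04, 0.07 and 0.08. Uqcrc1 (NM_025407, chromosome 9), a core protein on the matrix side, gave signals of 6522 in the Gli2 shRNA array and 7220.1 in the control array, a difference of -0.42 ± 0.20, or 1.34-fold lower. Uqcrh, the hinge protein that lies near cytochrome c1, gave 53092 in the Gli2 shRNA array and 55736 in the control array, a difference of -0.35 ± 0.20. These and Uqcr10, at 50654 in the Gli2 shRNA array and 51335 in the control array (-0.30 ± 0.20), were lower in the Gli2 shRNA array before scaling as well. Of the small subunits, Uqcrq was at -0.26, Uqcrb at -0.22 and Uqcr11 at -0.07. The other core protein, Uqcrc2, was at -0.10, and Uqcrfs1, the Rieske iron-sulphur protein that passes electrons on, was at -0.06. Of the 8, 7 were in the brightest 10 percent, where 938 of the 1391 other genes were below 0 and 281 lower past the error. Cyc1, the cytochrome c1 subunit outside the naming rule, was at -0.26, and cytochrome c itself, Cycs, at -0.32 with signals of 42891 in the Gli2 shRNA array and 44173 in the control array.

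Complex IV, cytochrome c oxidase, had the widest spread among subunits. Of 17 subunit genes 14 were measured, 12 below 0 and 2 above (49.7 percent of all named genes were below 0). Their median was -0.18 (-0.05 under median scaling). The 10 widely expressed subunits had 9 below 0 and a median of -0.19. Of these 10, 4 were lower past the software error (22.4 percent of all named genes were). Of the 14 measured subunits, 9 were in the brightest 10 percent, where 938 of the 1391 other genes were below 0 and 281 lower past the error. Cox6b1 (NM_025628, chromosome 7), a small subunit on the side facing cytochrome c, gave signals of 3638 in the Gli2 shRNA array and 5260.0 in the control array. Its difference was -0.81 ± 0.20 on its only probe, 1.75-fold lower, and 3.17 percent of all measured genes were at or below it. Under every processing tried it stayed between -0.81 and -0.67. Cox7c, Cox8a and Cox5a, also small widely expressed subunits, were lower past the error at -0.27, -0.23 and -0.22. Cox6a1, whose promoter is shown above, gave 123727 in the Gli2 shRNA array and 115576 in the control array, and its difference of -0.18 ± 0.20 was within the error. Cox7a2l, which tethers complex III to complex IV in supercomplexes, was the only widely expressed one above 0, at 0.02.

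Several complex IV subunits exist as a widely expressed gene and a tissue form, and the members of a pair could go different ways. Cox6b2, the testis form paired with Cox6b1, gave signals of 522 in the Gli2 shRNA array and 327 in the control array, a difference of 0.40 ± 0.20, or 1.32-fold higher. Cox6b1 was the lowest gene and Cox6b2 the second highest, so this pair lay at opposite ends. Cox6a2, the heart and skeletal muscle form of Cox6a1, gave 251 in the Gli2 shRNA array and 303 in the control array, a difference of -0.55 ± 0.21, or 1.46-fold lower. Cox4i1 was at -0.09 and Cox4i2, the form known from lung, at -0.04. Cox7a2 was at -0.19 ± 0.20 and its muscle form Cox7a1 at -0.19 ± 0.23, with dim signals of 73.4 in the Gli2 shRNA array and 68.9 in the control array. Cox7b was at -0.12, and its testis form Cox7b2 was not well above background on either array, and neither were Cox8b and Cox8c, forms of Cox8a. Ndufa4, long counted with complex I and now placed in complex IV, was at -0.18 ± 0.20. Its hypoxia-induced relative Ndufa4l2 was well above background in the control array only, with measured signals of 10.8 in the Gli2 shRNA array and 19.0 in the control array. For it only a bound holds, which was at least 1.52-fold lower, taken against the lowest signal well above background in the Gli2 shRNA array. On log2 this bound was -0.61, barely past the gene's software error of 0.59.

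**Figure D2:**
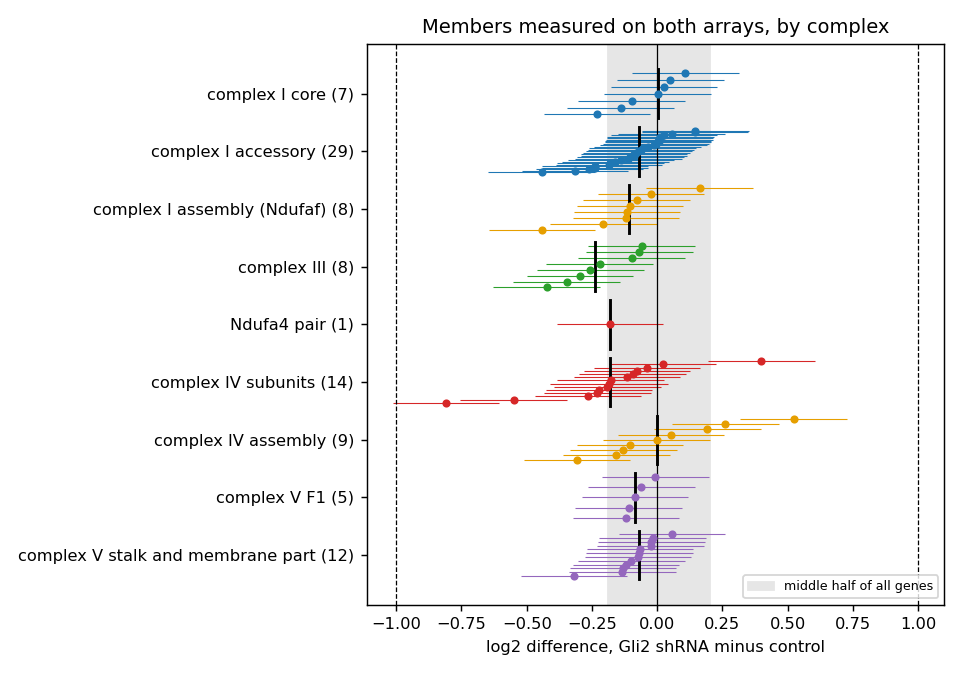
Each point is 1 gene measured on both arrays, placed by its log2 difference (x axis, Gli2 shRNA minus control) in a row for its class, with its number of genes in brackets. Bars are the software error, black ticks are class medians and the grey band runs between the quartiles of all named genes. Complex III genes all lie below 0, though median scaling, which moves every point by 0.14 to the right, puts Uqcrc2, Uqcr11 and Uqcrfs1 above 0; Cox6b1 (-0.81) and Cox19 (0.52) mark the ends.

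The complex IV assembly factors were split. Of 9 measured, 5 were below 0 and 4 above, with a median of 0.00 (0.13 under median scaling). Cox19 (NM_197980, chromosome 5), which takes part in copper handling for the enzyme, gave signals of 2893 in the Gli2 shRNA array and 1662 in the control array. Its difference was 0.52 ± 0.20 on its only probe, and 7.34 percent of all measured genes were at or above it. Cox20 and Cox18, which help to insert and mature the copper-binding MT-CO2 subunit, were at 0.26 ± 0.20 and 0.19 ± 0.20. For Cox20 the signals were 3939 in the Gli2 shRNA array and 2711 in the control array. Cox11, which delivers copper to MT-CO1, was the lowest at -0.31 ± 0.20, with signals of 2282 in the Gli2 shRNA array and 2331 in the control array. Copper factors therefore stood at both ends, and the copper chaperone Cox17 was between them at -0.13. Cox10 and Cox15, which make the haem of the enzyme, were at 0.00 and 0.05. A dimmer Cox10 probe, at 78.4 in the Gli2 shRNA array and 78.2 in the control array, gave -0.27 ± 0.22. Cox14 and Cox16, which accompany newly made MT-CO1 and MT-CO2, were at -0.10 and -0.16.

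Complex V had the narrowest spread, an SD of 0.08. Of its 17 subunits, 16 were below 0 and 1 above (49.7 percent of all named genes were below 0). The median was -0.07 (0.06 under median scaling). Of the 17, 16 were within the software error, while 6725 of all 14563 named genes were past that error. The bright genes defined above included 4 of the 5 F1 genes and all 12 others of complex V. Of the 1391 other bright genes, 938 were below 0 and 401 were past the error. In the F1 head all 5 genes were below 0 as reported and within the error. Atp5b, the catalytic beta subunit, gave 100115 in the Gli2 shRNA array and 89774 in the control array, a difference of -0.12 ± 0.20. Atp5a1, the alpha subunit that alternates with it, was at -0.01, and the rotating shaft subunits Atp5c1, Atp5d and Atp5e were at -0.06, -0.09 and -0.11.

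In the stalks and the membrane part, 11 of 12 genes were below 0. The exception was Atp5pb, the b subunit of the outer stalk, at 0.06, while its neighbour Atp5o, which joins the stalk to the head, was at -0.02. The c-ring is the rotor through which protons pass, and 3 genes code for the same mature c subunit. Atp5g3 was the lowest of complex V, with signals of 76616 in the Gli2 shRNA array and 78814 in the control array and a difference of -0.32 ± 0.20. Atp5g1 was at -0.13 and Atp5g2 at -0.07. Atp5g2 carries a probe printed in many spots, whose signals ran between 88004 and 98551 over 9 spots in the Gli2 shRNA array and between 73492 and 85601 over 10 spots in the control array. The spread between those spots was a log2 SD of 0.05 in the Gli2 shRNA array and 0.07 in the control array, less than the software error of 0.20. The small membrane subunits Atp5k, Atp5j2 and Atp5l were at -0.13, -0.12 and -0.10, and Atp5md and Atp5mpl at -0.02 and -0.03.

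Genes with more than 1 probe give a check within the arrays. In 27 of the 93 genes several probes were measured on both arrays, and the range between the probes of a gene had a median of 0.06, against 0.16 for 5415 named genes with several probes. In 19 of the 27 the range was under 0.1, against 1867 of the 5415 named genes. This comparison was not matched for brightness, and 66 of the 93 were among the bright genes defined above. In 17 of the 27 all probes had the same sign, and none of the 27 had probes in opposite directions past their errors. Signs and directions were not counted for the 5415 named genes. Ndufb8 had the widest range, 0.47, between its bright probe at -0.26 and a dim probe at 0.21 ± 0.34, with signals of 29.9 in the Gli2 shRNA array and 21.4 in the control array. The second probe of Uqcr10 was at -0.37, against -0.30 on the brighter, and that of Ndufa5 at -0.25, against -0.24. Signs differed, among others, for Ndufv1, at 0.11 on the brighter probe and -0.03 on the other, and for Ndufb5, at -0.06 and 0.11. Cox6b1, Cox19, Ndufc2, Ndufaf4 and Uqcrc1 each had 1 probe.

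**Figure D3:**
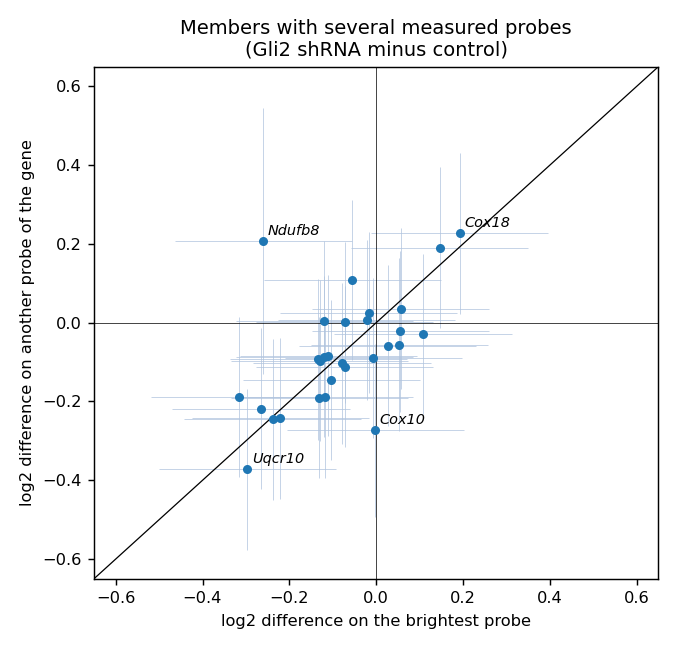
Each point sets another measured probe of a gene (y axis) against its brightest probe (x axis), both as log2 difference, Gli2 shRNA minus control, for 27 genes; bars are the software error and the diagonal marks equal values. Most points lie near the diagonal, and Ndufb8 with its dim second probe lies farthest from it.

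The wider pathway outside the naming rule was described from a list of 51 genes, of which 49 were measured on both arrays. There 27 were below 0 (49.7 percent of all named genes were) and 22 above, with a median of -0.03. Past 2-fold were 2 of the 49, both lower, against 3.63 percent of all named genes in either direction. Those 2 were Ppargc1a, a coactivator of mitochondrial biogenesis, at 80.0 in the Gli2 shRNA array and 325 in the control array (-2.30), and Sdhd, a membrane anchor of complex II, at 4452 in the Gli2 shRNA array and 14449 in the control array (-1.98). The other complex II subunits Sdha, Sdhb and Sdhc were at 0.12, -0.07 and 0.07. The regulators Nrf1, Gabpa and Yy1, whose motifs were searched, were at -0.17, -0.10 and -0.03, and Esrra, an orphan nuclear receptor that works with Ppargc1a, was at 0.43. After Ppargc1a and Sdhd the lowest measured were Higd2a, a factor for supercomplexes, at -0.62, and Atpaf1, an F1 assembly factor, at -0.54. After Esrra the highest measured were the complex IV assembly factors Coa5 and Pet100, at 0.40 and 0.29.

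Promoter windows of 250 bases before to 50 after the start were found in the RefSeq table for 79 of the 97 genes, as 85 windows. The NRF1 core matched in 11.8 percent of these windows, against 3.25 percent of 14661 windows of genes measured on both arrays and 1.75 percent of all 32851 windows. The ETS or GABP core matched in 27.1 percent, against 15.7 percent of the windows of measured genes and 8.86 percent of all windows. For the YY1 core the shares were 10.6, 2.63 and 1.40 percent in the same order. The SP1 core matched in 47.1 percent, against 58.4 percent of the windows of measured genes and 35.7 percent of all windows. The ERR core was found in 1.18 percent, only in Atp5g3, against 0.293 percent of windows of measured genes and 0.423 percent of all windows. The GLI core was in 0 of the 85 windows, against 0.184 percent of windows of measured genes and 0.253 percent of all windows.

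The 10 measured genes with an NRF1 match had a median of -0.11, and the 67 without one had -0.09. Among them were Ndufaf4 and Uqcrc1, at -0.44 and -0.42, and also Ndufa11, at 0.00. The 22 genes with an ETS or GABP match had a median of -0.10, and the 55 without had -0.09. Cox6b1, the lowest, and Cox20, one of the highest, both had such a match. The 9 genes with a YY1 match, among them Ndufs7 at -0.23 and Ndufs4 at 0.14, had a median of -0.07, and the 68 without had -0.09. Among cores that matched in more than 1 gene the widest gap was for SP1, with -0.07 for 37 genes with a match and -0.12 for 40 without. The ERR core matched in 1 gene only, Atp5g3 at -0.32, and the 76 without had a median of -0.09. A match describes letters in a window and not a bound site.

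**Figure D4:**
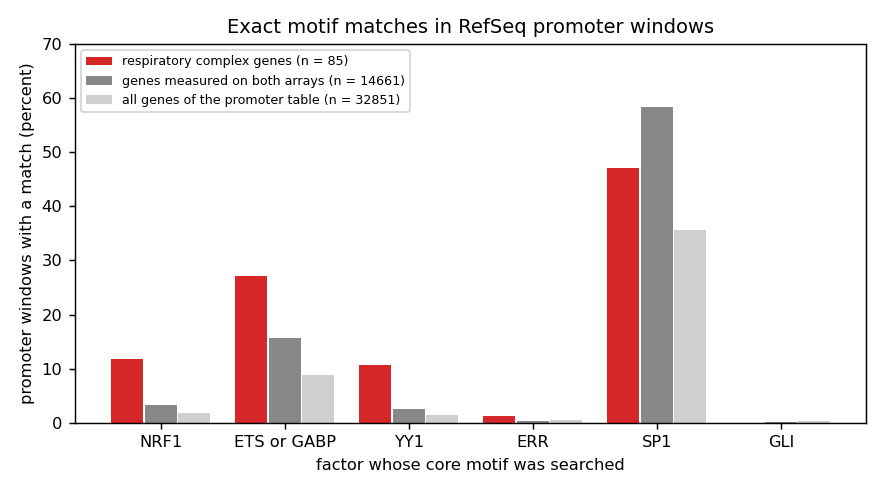
Bars give the percent of RefSeq promoter windows with an exact match to each factor's core, for respiratory complex genes, for genes measured on both arrays and for all genes of the promoter table. Matches to the NRF1, ETS or GABP and YY1 cores are more frequent in the respiratory windows (11.8, 27.1 and 10.6 percent). The GLI core has none in 85 windows, which are too few to show a share below the 0.184 percent of genes measured on both arrays.

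The medians of the classes were recomputed under 9 other ways of processing the arrays. Complex III was the lowest under all of them. Complex IV subunits came next except under cyclic loess, where they were at -0.10 and the Ndufaf factors at -0.11. Complex III lay between -0.24 and -0.10, and complex IV subunits between -0.18 and -0.05. The other classes stood on both sides of 0 across these settings, including complex V, which was at -0.01 after quantile normalisation.

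**Figure D5:**
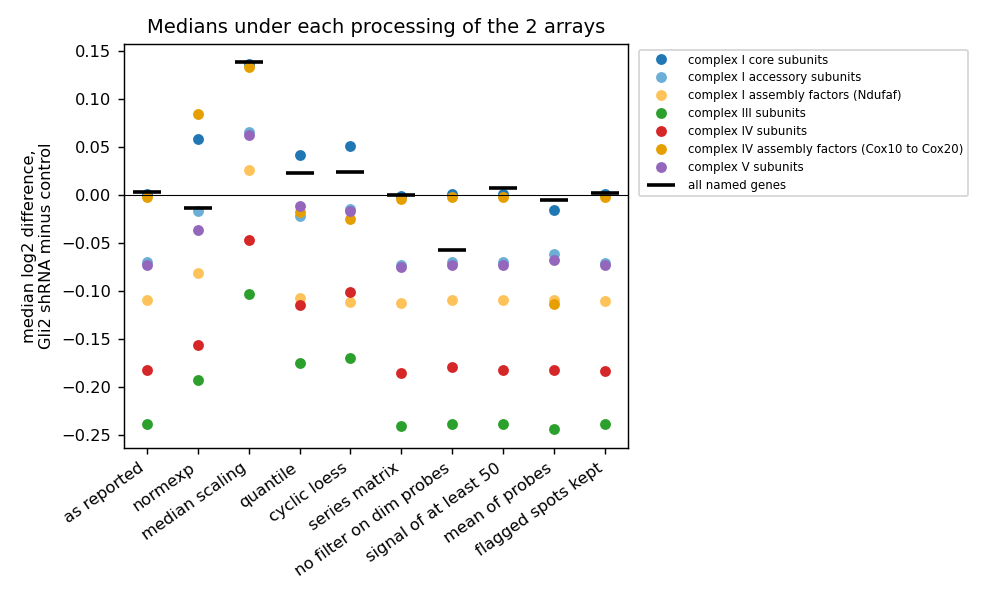
Points are the median log2 difference, Gli2 shRNA minus control, of each class under each processing (x axis), and black bars are the median of all named genes. Complex III (green) and complex IV subunits (red) stay below 0 and below the bar throughout, while all classes but these 2 lie above 0 under median scaling.

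As checks of the arrays, Gli2 gave signals of 57.9 in the Gli2 shRNA array and 98.1 in the control array, a difference of -1.04 ± 0.22. Of 8 markers of neural and glioma stem cells, 7 were measured on both arrays, 5 of them below 0 and 2 above, with a median of -0.06. The summed signal of the 8 was 218929 in the Gli2 shRNA array and 166997 in the control array, before scaling. Olig2 was at -0.23, Vim at 0.35 and Nes at 0.47. Nr2e1 was well above background in the control array only, at 27.2, against 15.4 in the Gli2 shRNA array. Of 6 leukocyte markers 2 were measured on both arrays, Csf1r at -0.13 and Itgam at -0.07 (5413 in the Gli2 shRNA array and 4694.0 in the control array). The sum over the 6, before scaling, was 5870 in the Gli2 shRNA array and 5127 in the control array. Aif1 and P2ry12 were well above background in the control array only, at 17.5 and 19.1, against 5.64 and 6.46 in the Gli2 shRNA array. Ptprc and Cx3cr1 were not well above background on either. Of 5 endothelial markers Pecam1 and Kdr were measured on both arrays, and the sum over all 5 was 121 in the Gli2 shRNA array and 123 in the control array. Of 6 fibroblast and pericyte markers only Col1a2 was measured on both arrays, at a difference of -0.19, and the sum over all 6 was 56.2 in the Gli2 shRNA array and 61.8 in the control array. Their part in the differences was not tested. In bulk RNA fewer cells of a type and less RNA per cell cannot be told apart.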

How the data were processed

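The members and gene lists were chosen with earlier results of these data known. Cy3-labelled cRNA was hybridised to 1-colour arrays, per the labels' protocols. The deposited scanner files, made with Agilent Feature Extraction 12.1.0.3 per the file headers, hold background-subtracted processed intensity per spot. The arrays shared 1 slide and 1 scan. The authors' deposited value table is on a log2 scale, and in each column 99.7 percent of rows lay within 0.01 of this intensity on log2 minus 1 constant, with medians of -3.69 (Gli2 shRNA) and -3.55 (control). Control spots and spots marked as outliers (120 on the Gli2 shRNA array, 126 on the control array) were left out, leaving 56595 probes, and 0 spots were saturated. Spots of a probe were averaged on log2, and arrays were scaled on their 75th percentile. A probe was measured where the software marked it well above background, which held for 57.1 percent in the Gli2 shRNA array and 59.5 percent in the control array. Probes were named by RefSeq accession through the gene table of GRCm38.p6, and a gene stands at its brightest probe.

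No test was run, since each group has 1 array, and that number limits the precision. The software error is modelled, with a median of 0.20. Named genes were the up to 3 lowest and 3 highest of each class, isoform pairs, and pathway genes past 2-fold or at the ends of their list. Ndufa5, Ndufb10, the further pathway genes and the other genes given to complete a class were chosen after their values were seen. Alternatives used limma 3.58.1 in R 4.3.3 (normexp with an offset of 50, quantile, cyclic loess), and normexp, planned on the mean signal, used the median signal of each spot. The value of 1 gene is not reported here.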

Additional observations from a re-analysis of the deposited data

How the results depend on the processing

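With 1 array per group nothing measures the spread between cultures, and a difference within about 0.20 on the log2 scale is within the software error. The 4 genes not measured on both arrays carry no difference. No paired analysis was possible because each group holds 1 array. Of the named genes, Ndufb8 moved past its error, to -0.03, where probes were averaged. No other named gene did under the 9 alternatives, most of which shift genes alike by less than that error or leave measured values as they are, so this says little about stability. Without the filter on dim probes 2 genes passed 2-fold, Ndufa4l2 and Cox7b2, both of which were dim. Median scaling, which adds 0.14 to every gene by construction, left 30 genes below 0 and put the median of all respiratory genes at 0.041. It put complex I core at 0.14, complex I accessory at 0.065, Ndufaf at 0.026, complex IV assembly at 0.13 and complex V at 0.063, with complex III at -0.10 and complex IV subunits at -0.047. Quantile normalisation gave -0.18 for complex III, -0.11 for complex IV subunits and -0.011 for complex V. Cyclic loess gave -0.17, -0.10 and -0.017 for the same classes. Normexp gave 0.059 for complex I core and 0.085 for complex IV assembly. Averaged probes gave -0.016 for complex I core and -0.11 for complex IV assembly, and the authors' deposited value table gave -0.00093 for complex I core. The cause of the moves under quantile, cyclic loess and normexp was not tested.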
